A study of Mus musculus with 38 samples.

Results

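HSF2 was profiled by CUT&Tag in mouse embryonic stem cells that lack the endogenous protein and express an introduced full-length HSF2, and the same set of binding sites was read once with an antibody against HSF2 and once with an antibody against an HA tag. The comparison below is between these mitotic (M) profiles. A site was used where both signals were above 0 and its ratio was the log2 of the anti-HSF2 over the anti-HA signal. Intervals that the score table repeats exactly were counted once. Of the 2141 lines of the table, 2135 were distinct sites and 2134 had a ratio. The remaining site, on chromosome 2 from 147738278, was at 0 with anti-HSF2 and at 0.801 with anti-HA.

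HSF2 belongs to the heat shock factors, which bind as trimers to heat shock elements, arrays of inverted GAA units found at the promoters of chaperone genes. CUT&Tag tethers the Tn5 transposase, through protein A, to the antibody on chromatin, where it cuts adapters into the DNA close by, so the profile depends on what the antibody meets as well as on the protein of interest. An antibody against the protein itself and one against an epitope tag are a common pair for telling binding of the protein from signal particular to one reagent.

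All 4 libraries came from Hsf2-/- derivatives of the mouse embryonic stem cell line JM8, in which the gene had been removed by CRISPR editing. Nocodazole (50 ng/ml, 6 h) had been given to every culture, and mitotic cells were shaken off. There were 2 libraries for each antibody. The anti-HSF2 libraries are labelled HSF2-OE and the anti-HA libraries HSF2 full length with HA tag. The methods describe stable lines in Hsf2-/- cells in which HSF2 carries an N-terminal HaloTag under the EF1α promoter, with and without HA, and the labels do not say whether both antibodies were used on the same line. Antibody and construct therefore cannot be told apart. For comparison, the table also holds both profiles from asynchronous (A) cells, the truncated Halo-H2DBD (the DNA-binding domain and nuclear localisation signals) read with anti-HA, and endogenous HSF2 in JM8 cells read with anti-HSF2, each in A and M. The series has 38 libraries in 19 conditions. The knockout cells without a construct, the HA control and IgG were not analysed here, so no background was subtracted from either antibody.

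Each deposited value is the mean over the site of coverage that the authors had scaled to reads from added Drosophila cells and averaged over the 2 libraries. Each site has 1 value per condition. Variation within a pair of libraries could therefore not be weighed, and differences were not tested. The values do not carry read depth. The paper's supplement lists total reads and scaling values for the mitotic anti-HA pair, whose libraries differed in both. Those totals were not used here. The 95% intervals below are over sites, which are not independent, and cover no variation between cultures. Since a constant error in the scaling would shift the ratio of every site alike, sites were read against the median ratio and by their rank. The site list was called by the authors from JM8 anti-HSF2 libraries, so a place with anti-HA signal only is not in it.

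Short sequences are shown first because the antibody ratio went with one of them. The octamer CACGTGAC extends the E-box CACGTG, a site for basic helix-loop-helix factors. Its palindromic form, in which GT precedes the octamer, is the core of the CLEAR element of lysosomal gene promoters, which the MiT/TFE factors bind. The lines below give, from the GRCm38 (mm10) reference, every CACGTGAC in 4 of the sites that favoured anti-HSF2. Capitals mark the octamer, the coordinates are those of the capitals, and the sequence is written on the strand that reads CACGTGAC.

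Stk4 chr2:164074078-164074085 plus strand: gccactgtgcCACGTGACtcccgccgct

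Ubap2l chr3:90052497-90052504 minus strand: aatcttatatCACGTGACaggggcggcg

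Ubap2l chr3:90052601-90052608 plus strand: cgtccctcagCACGTGACgcgaaagggc

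Ubap2l chr3:90052721-90052728 plus strand: ccgcctccatCACGTGACtccagtaagg

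Ubap2l chr3:90052804-90052811 minus strand: ccccctccgcCACGTGACttatgtccgc

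Cd164 chr10:41519139-41519146 minus strand: cgcgaggtgtCACGTGACccctcggtag

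Cd164 chr10:41519141-41519148 plus strand: accgaggggtCACGTGACacctcgcggc

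Cd164 chr10:41519197-41519204 minus strand: tggaactgccCACGTGACgtagcgaggg

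Cd164 chr10:41519413-41519420 plus strand: ccgggctgctCACGTGACcggcgcgcgc

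Lamp1 chr8:13159133-13159140 plus strand: tgccgactggCACGTGACcacatcacgt

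Lamp1 chr8:13159221-13159228 plus strand: accctcggctCACGTGACcggcgggcgc

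Lamp1 chr8:13159248-13159255 plus strand: cggcactgctCACGTGACaggcgctgcc

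The first pair of lines for Cd164 is one palindrome read from both strands. For contrast, heat shock elements of 3 chaperone genes are given in the same way, with the 13 bases of the element in capitals (GAA, TTC and GAA, each 2 bases apart). Sites with this element were among the weaker sites with both antibodies.

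Hspa8 chr9:40801063-40801075 plus strand: gcgagcgtGAAAGTTCCAGAAcgccgcgg

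Hspa8 chr9:40801221-40801233 minus strand: ctgtcttaGAACCTTCCAGAAgggtgccg

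Hsp90aa1 chr12:110696387-110696399 plus strand: agcctccgGAACCTTCCGGAAgaaccctc

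Hsph1 chr5:149636288-149636300 plus strand: actgaggaGAACTTTCCAGAAtctgcagc

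Over all 2134 sites the median log2 ratio of anti-HSF2 to anti-HA was 0.24 (95% interval over sites, 0.19 to 0.27), with quartiles of −0.31 and 0.78. Single sites ran from −4.89 to 5.62. The median signal was 2.44 with anti-HSF2 and 2.02 with anti-HA, in scaled coverage per base. A site was called when its log2 ratio lay at least 1, that is 2-fold, from the median. By this rule 212 sites (9.93%) were called towards anti-HSF2 and 243 (11.4%) towards anti-HA, together 21.3% of the sites. The threshold cut through a continuous distribution. The lowest site called towards anti-HSF2 had a log2 ratio of 1.236 and the next one, not called, 1.234, while on the other side these values were −0.765 and −0.763.

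The order of the sites was shared in part. Across the 2135 sites, the Spearman correlation of the mitotic anti-HSF2 and anti-HA signals was 0.56 (95% interval 0.53 to 0.59). Each anti-HA profile was closer to the others made with that antibody. Mitotic anti-HA Halo-HSF2 correlated with mitotic anti-HA Halo-H2DBD at 0.85 and with its own asynchronous profile at 0.83. Mitotic anti-HSF2 correlated with its own asynchronous profile at 0.59 and with mitotic Halo-H2DBD at 0.56. Endogenous mitotic HSF2 in JM8 cells, read with anti-HSF2, correlated with mitotic Halo-HSF2 at 0.36 with anti-HSF2 and at 0.34 with anti-HA. All these correlations are over the same intervals, which share width, base composition and mappability, and each condition is an average of 2 libraries whose separate noise is unknown.

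Of the 100 strongest sites with each antibody, 47 were common to both. The percentile rank of a site differed between the antibodies by a median of 15.8 points, and at 158 sites (7.40%) it differed by at least 50 points. At 26 sites the signal was in the top 25% with anti-HSF2 and in the bottom 25% with anti-HA. CACGTGAC was found in 15 of these 26, and 1 overlapped an HSF1 site. At 30 sites the order was the opposite, and there 2 held CACGTGAC and 17 overlapped an HSF1 site. Over all sites 17.7% held CACGTGAC and 40.7% overlapped an HSF1 site.

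**Figure D1:**
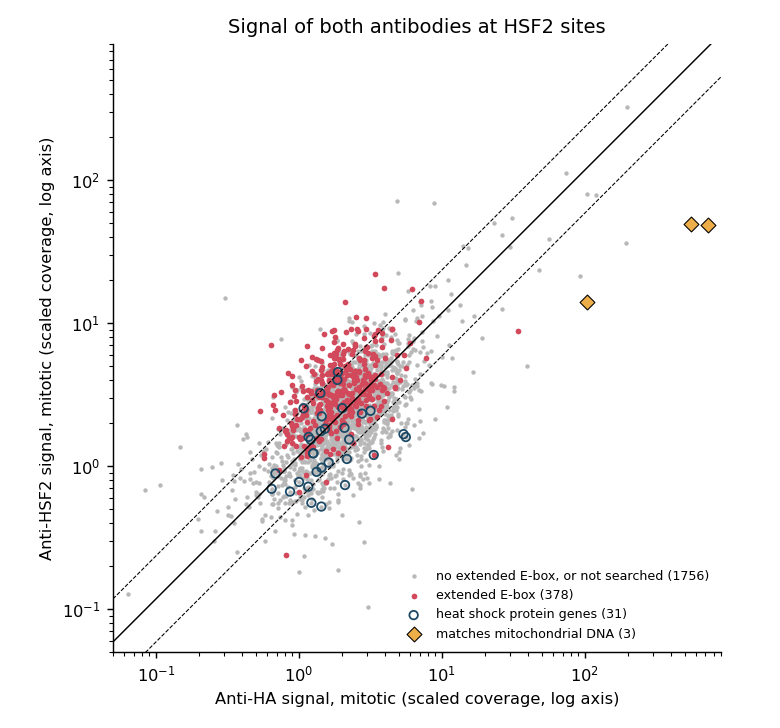
Each point is an HSF2 site, with its mitotic anti-HA signal on the x axis and its mitotic anti-HSF2 signal on the y axis (scaled coverage, both axes logarithmic); the solid line is the median ratio and the dashed lines lie 2-fold from it. Sites with the extended E-box CACGTGAC (red, 378 sites) lie mostly above the solid line, heat shock protein genes (blue circles, 31 sites) lie in the lower part of both ranges, and the 3 sites that match mitochondrial DNA (diamonds) lie far below it.

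CACGTGAC sites carried more anti-HSF2 than anti-HA signal relative to the other sites. The octamer was chosen after these ratios had been seen, so its counts, intervals and differences are a description only. The octamer was present on either strand in 378 of 2131 sites with reference sequence (17.7%, Wilson 95% interval 16.2% to 19.4%). In windows of the same widths placed 2000 bp upstream and downstream of the sites, 3.66% held it on each side. The windows were not matched for base composition or distance to a gene start, and 72.9% of the sites lay at coding starts. Of its 509 occurrences, with a palindrome counted once on each strand, 79.6% lay in the middle 50% of a site. The median log2 ratio was 0.83 (0.74 to 0.91) in sites with the octamer and 0.12 (0.083 to 0.17) in the 1752 sites without it. The difference of the medians was 0.71 (0.61 to 0.80). Of the sites with the octamer 100 were called towards anti-HSF2 (26.5%, against 9.93% of all sites) and 6 towards anti-HA (1.59%, against 11.4%). Read the other way, 47.2% of the sites called towards anti-HSF2 held CACGTGAC, against 2.47% of those called towards anti-HA.

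The ratio rose with the number of octamers, counted over both strands, so that 1 palindrome counts as 2. Its median was 0.71 in 285 sites with 1, 1.10 (0.84 to 1.19) in 68 sites with 2 and 1.74 (1.39 to 2.04) in 25 sites with 3 or more. Of these 25 sites, 18 were called towards anti-HSF2 and 0 towards anti-HA, against 9.93% and 11.4% of all sites. The bare core went with a smaller step. Sites with CACGTG but no CACGTGAC had a median of 0.27, and sites without CACGTG had 0.028, a difference of 0.24. The 49 sites with the palindromic form, GT followed by CACGTGAC, had a median of 1.01. All of them fall in the classes with 2 or more, so the step from 1 to 2 mixes the palindromic form with copy number.

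**Figure D2:**
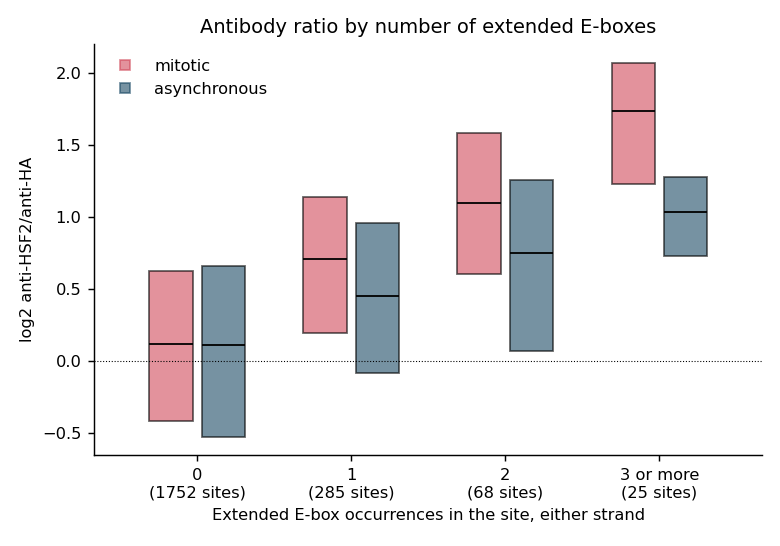
Log2 ratio of anti-HSF2 to anti-HA signal (y axis) by the number of CACGTGAC octamers in the site (x axis), for mitotic (red) and asynchronous (blue) cells; boxes span the quartiles and the line is the median. The mitotic medians rise from 0.12 to 1.74 and the asynchronous medians from 0.11 to 1.03. A palindrome counts as 2 octamers.

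The rise was in the anti-HSF2 signal. From sites without the octamer to those with 1, 2 and 3 or more, the median percentile rank of the mitotic anti-HSF2 signal went from 44.9 to 67.3, 79.1 and 89.1. That of the mitotic anti-HA signal went from 51.3 to 49.1, 39.4 and 39.7. Halo-H2DBD, the other construct read with anti-HA, had 51.0, 48.3, 38.7 and 53.9. Neither anti-HA profile rose step by step with the octamers. Endogenous mitotic HSF2 in JM8 cells, which is read with anti-HSF2, stood at 49.8, 49.4, 54.2 and 64.1. In asynchronous cells the anti-HSF2 ranks of the Halo-HSF2 cells were 48.2, 54.7, 54.7 and 73.1. Setting mitotic anti-HSF2 against mitotic Halo-H2DBD in place of full-length anti-HA, the median log2 ratio was 1.00 with the octamer and 0.30 without. For full-length over Halo-H2DBD, both with anti-HA, it was 0.18 and 0.17.

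**Figure D3:**
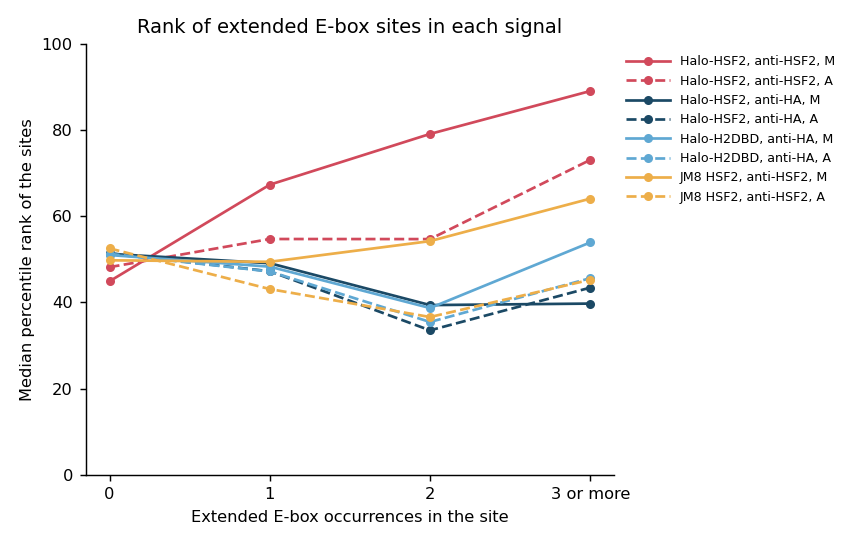
Median percentile rank of the sites (y axis, 0 to 100) in each of the 8 signals against the number of CACGTGAC octamers (x axis), with solid lines for mitotic and dashed lines for asynchronous cells. The mitotic anti-HSF2 signal of Halo-HSF2 cells goes from 44.9 to 89.1, while the anti-HA signals stay between 33.5 and 53.9.

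The same contrast between sites with and without the octamer was present in each class of site examined. At sites within 1 kb of the start of a protein-coding gene the medians were 0.88 with it and 0.12 without, and at distal sites 0.54 and 0.13. At sites overlapping an HSF1 site they were 0.53 and −0.043, and elsewhere 0.90 and 0.26. In the 31 sites holding both the octamer and a heat shock element, the median was 0.80. Sites were also ordered by the mean of both percentile ranks and cut into quartiles, and the medians with the octamer ran from 0.71 to 1.10 over the quartiles, against 0.097 to 0.24 without.

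The mitotic gain of anti-HSF2 signal also went with the octamer. The median log2 of mitotic over asynchronous anti-HSF2 signal in the Halo-HSF2 cells was 1.01 in sites with CACGTGAC and 0.57 without. With anti-HA it was 0.60 and 0.56. For endogenous HSF2 it was 0.78 and 0.43. Each phase was scaled on its own, so differences between classes of site are less open to the scaling than the values themselves.

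Sites within 1 kb of the start of a lysosome gene had higher ratios than the median site in 22 of 24 cases. A list of 61 genes for lysosomal enzymes, membrane proteins, the V-ATPase proton pump and nutrient sensing at the lysosome was drawn up after the values had been seen, so its counts are a description only. A site was measured for 24 of them. Of the 24, 15 were called towards anti-HSF2 and 0 towards anti-HA, against 9.93% and 11.4% of all sites. The median log2 ratio of the list was 1.48. The octamer was found in 14 of the 24, and their median was 1.54. In the 10 without it the median was 1.14, with 5 of the 10 called.

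Among these genes, Cd164 (chr10:41518417-41520446), which encodes a sialomucin of endosomes and lysosomes, had a mitotic signal of 8.94 with anti-HSF2 and 1.75 with anti-HA, a log2 ratio of 2.35. Lamp1 (chr8:13157488-13160226), for a major protein of the lysosomal membrane, had 5.03 and 1.13 (2.15). Both ranked far higher with anti-HSF2 than with anti-HA, at 71 and 254 of 2135 against 1299 and 1810.

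The log2 ratios of the V-ATPase subunit genes Atp6v0b, Atp6v0d1, Atp6v1a and Atp6v0c were 1.87, 1.49, 1.29 and 0.99, the last not called. Those of Flcn, Rragb and Rragc, which act in amino acid signalling to mTORC1, were 1.38, 2.17 and 1.83. The autophagy genes Uvrag and Map1lc3b had 1.47 and 1.85. The lowest members were Wipi1 and Fnip2, at 0.12 each, with anti-HSF2 signals of 4.93 and 3.97 and anti-HA signals of 4.53 and 3.65. In asynchronous cells 21 of the 24 sites lay above the asynchronous median, with Lamp1 at 1.73, while Rragb and Uvrag were at −0.38 and −0.039.

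**Figure D4:**
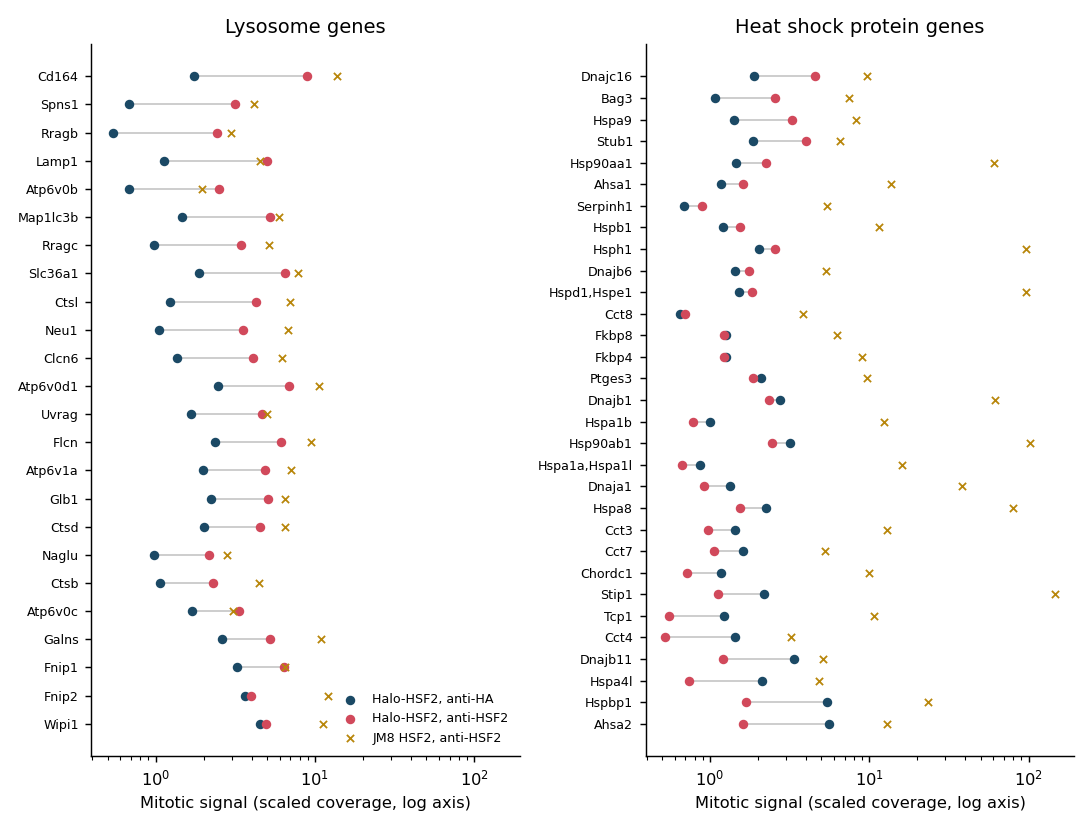
Mitotic signal (x axis, scaled coverage, logarithmic) at each site near a lysosome gene (left, 24 sites) and near a heat shock protein gene (right, 31 sites), ordered by ratio; grey lines join the anti-HA (blue) and anti-HSF2 (red) values of Halo-HSF2 cells, and crosses give endogenous HSF2 in JM8 cells. Anti-HSF2 is above anti-HA at all 24 lysosome sites, against 62.4% of all sites, and 22 of the 24 lie above the median ratio. At the heat shock protein genes both lie between 0.522 and 5.61 while the endogenous signal reaches 146.5.

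At heat shock protein genes, the classical targets of the family, the ratios fell on both sides of the median and most signals were below the median site with both antibodies. Lists of HSP70 and HSP110, HSP90 and its co-chaperones, HSP40 and BAG proteins, chaperonins and small heat shock proteins gave 31 sites at 33 genes. Of these, 27 overlapped an HSF1 site, 15 held a heat shock element and 3 held CACGTGAC. The median log2 ratio was −0.25, and 11 of the 31 lay above the median of all sites. Dnajc16, which shares its site with Casp9 and holds CACGTGAC, was the 1 site called towards anti-HSF2, and 7 were called towards anti-HA (background 9.93% and 11.4%). In asynchronous cells 15 of the 31 lay above the asynchronous median.

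By signal, the strongest of the 31 chaperone sites ranked 310 of 2135 with anti-HSF2 and 109 with anti-HA (Ahsa2), and 9 of the 31 were among the 100 strongest for endogenous mitotic HSF2. Their median mitotic signal was 1.53 with anti-HSF2 and 1.44 with anti-HA, against 2.44 and 2.02 over all sites. It was 1.35 for Halo-H2DBD and 10.7 for endogenous HSF2. The levels of different tracks depend on their scaling, while the ranks do not depend on a factor common to both libraries of a track.

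Hspa8 (chr9:40797528-40808044), for the constitutive HSP70, had 1.54 with anti-HSF2 and 2.25 with anti-HA, ranks 1623 and 904, whereas endogenous HSF2 ranked 20 there with 79.3. Hsp90aa1 (chr12:110693602-110705488), for the inducible HSP90, had 2.23 and 1.45 (ranks 1178 and 1556, endogenous rank 34). Hsp90ab1, for the constitutive HSP90, had 2.44 and 3.18 (ranks 1065 and 447, endogenous rank 12). The order of the antibodies thus differed between the HSP90 genes, and none of these differences reached 2-fold from the median.

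Hsph1, of the HSP110 family, had 2.55 with anti-HSF2 and 2.01 with anti-HA, and Dnajb1, an HSP40 that works with HSP70, had 2.33 and 2.77. The log2 ratios of both, 0.34 and −0.25, lay within 2-fold of the median. The mitochondrial HSP70 gene Hspa9 had 3.25 and 1.41, a log2 ratio of 1.20 that fell just short of the call, and −0.25 in asynchronous cells. Stub1, for a ubiquitin ligase that acts on HSP70 and HSP90 clients, had 4.02 and 1.86 (1.11) and holds CACGTGAC. Ptges3, for the HSP90 co-chaperone p23, had 1.86 and 2.09 (−0.17).

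The chaperone sites called towards anti-HA were led by Ahsa2, an activator of HSP90, with 1.60 and 5.61 (−1.81), and Hspbp1, a nucleotide exchange factor of HSP70, with 1.68 and 5.40 (−1.69). Dnajb11, an HSP40 of the endoplasmic reticulum whose site is shared with Tbccd1 and holds CACGTGAC, had 1.20 and 3.34 (−1.48), against 0.94 in asynchronous cells. Hspbp1 and Ahsa2 had the same direction in asynchronous cells, at −1.62 and −0.96. Of the chaperonin sites 2 of 6 were called towards anti-HA (background 11.4%), Cct4 at −1.46 and Tcp1 at −1.14.

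A heat shock element of these 3 units, on either strand, was present in 300 sites (14.1%) and in 4.27% of the windows on each side. Sites with it had a median log2 ratio of 0.14 (0.040 to 0.22) and those without of 0.26, a difference of −0.11 (−0.23 to −0.021). The median percentile rank of the sites with an element was 18.4 with anti-HSF2 and 22.7 with anti-HA, both low. For endogenous mitotic HSF2 it was 71.9, and for mitotic Halo-H2DBD 21.0. The difference in the ratio was −0.21 at coding starts, −0.0098 at distal sites and 0.019 when 4 units were required. On percentile ranks it was 0.023 points, so the sign depended on the measure.

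Sites shared with HSF1 had lower ratios than the other sites. The HSF1 site list of the series, called in JM8 cells, overlapped 868 of the 2134 sites by at least 1 bp, with a median log2 ratio of 0.024 (−0.039 to 0.086) against 0.39 (0.34 to 0.44) for the 1266 others. The difference was −0.37 (−0.45 to −0.29). Towards anti-HA, 136 of these sites (15.7%) were called, against 11.4% of all sites, and 43 (4.95%) towards anti-HSF2, against 9.93%. The median percentile rank of the HSF1-overlapping sites was 46.9 with anti-HSF2 and 60.9 with anti-HA. Within sites lacking CACGTGAC the difference was −0.30. Over all sites, with and without the octamer, the difference had the same sign in each quartile of mean rank. From the weakest quartile to the strongest, the medians with and without an HSF1 site were −0.029 and 0.31, −0.13 and 0.36, −0.058 and 0.44, and 0.24 and 0.44.

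Sites of SOX2, a pluripotency factor of stem cells, gave a difference in the same direction. The 407 sites that overlapped one had a median log2 ratio of 0.055 (−0.029 to 0.15), against 0.27 in the others, a difference of −0.22. The classes overlapped, and 59.7% of the SOX2-overlapping sites also overlapped an HSF1 site. With SOX2 and not HSF1 the median was 0.21 (164 sites), with HSF1 and not SOX2 0.050 (625 sites), with both −0.032 (243 sites) and with neither 0.41 (1102 sites). The 1 site at Pou5f1, which encodes OCT4, overlapped both and had 1.94 with anti-HSF2 and 1.84 with anti-HA, a log2 ratio of 0.072. No site lay within 1 kb of a start of Hsf2.

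Differences by position relative to genes were small. The 1556 sites at coding starts had a median of 0.27 and the 578 distal sites of 0.18, a difference of 0.087 (0.015 to 0.20). The difference was −0.011 in sites without CACGTGAC, which was present in 19.9% of coding-start and 11.9% of distal sites. Differences by strength were of similar size. From the weakest to the strongest quartile of mean rank the medians were 0.16, 0.19, 0.32 and 0.32.

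**Figure D5:**
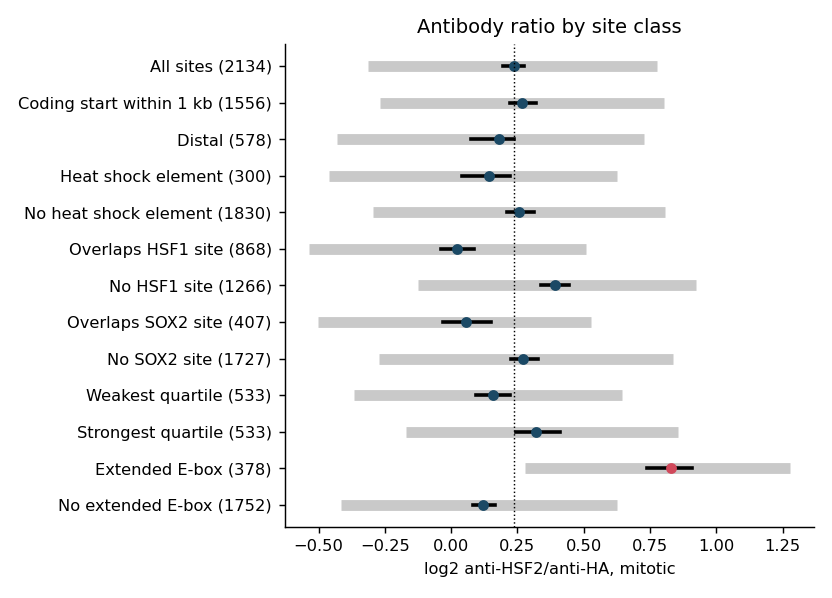
Median log2 ratio of anti-HSF2 to anti-HA signal in mitotic cells (x axis) by class of site, with the number of sites in brackets; points are medians, black lines 95% intervals over sites, grey bars the quartiles and the dotted line the median of all sites. The class with the extended E-box, at 0.83, lies furthest from the dotted line, and sites overlapping HSF1, at 0.024, lie below it.

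The sites with the highest ratios, among those in the upper 50% with either antibody, all kept the direction in asynchronous cells. The highest was an interval on chromosome 2 without a gene (chr2:179308948-179311518), with 15.0 with anti-HSF2 and 0.305 with anti-HA, a log2 ratio of 5.62. It had 3.36 in asynchronous cells, and endogenous mitotic HSF2 was at 14.4. An interval inside Tusc3 (chr8:39155280-39156051), of which 68.1% was repeat-masked, had 71.7 and 4.84 (3.89). A neighbouring one (chr8:39152824-39153593) had 69.0 and 8.84 (2.96).

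Stk4, the kinase MST1 of the Hippo pathway, followed with 7.03 and 0.644 (3.45), and an interval at 2610020F03Rik inside Map3k13 with 7.79 and 0.748 (3.38). Ubap2l, for a protein of stress granules, shares its site with 4933434E20Rik and had 14.1 and 2.11 (2.74). Tsc1, an inhibitor of mTORC1, had 9.18 and 1.41 (2.70), and Impact, a translational regulator that is imprinted, 22.1 and 3.43 (2.69). An interval at 2310043M15Rik had 6.91 and 1.14 (2.59) and Zmym6 8.45 and 1.50 (2.50). Of these 10 sites 5 held CACGTGAC, 5 were at coding starts and 0 held a heat shock element, against 17.7%, 72.9% and 14.1% of all sites.

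At the other end, 3 of the 10 lowest ratios belonged to nuclear sequences that match mitochondrial DNA. By BLAST of the sites against the mitochondrial genome, chr10:85025974-85026270 matched over 297 bases with 92.9% identity, chr5:60042719-60043085 over 368 aligned bases with 97.8%, and chr4:80002409-80004287 over 1879 with 93.5%. These were the only 3 of the 2131 sites with a match. Mapping of reads from such sequence to a nuclear copy depends on the alignment settings, and reads of mitochondrial DNA and of these intervals cannot be told apart in the deposited means. The chromosome 10 interval is printed here, with the 21 bases that differ from the mitochondrial genome in capitals.

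Chromosome 10 interval: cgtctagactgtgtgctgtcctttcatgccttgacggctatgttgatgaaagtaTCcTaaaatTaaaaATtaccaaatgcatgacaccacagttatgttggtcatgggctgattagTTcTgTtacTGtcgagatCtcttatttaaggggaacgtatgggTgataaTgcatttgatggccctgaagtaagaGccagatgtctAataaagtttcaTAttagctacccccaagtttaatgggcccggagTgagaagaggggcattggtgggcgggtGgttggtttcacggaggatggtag

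This interval had the strongest mitotic anti-HA signal of all sites, 725.5, and 48.5 with anti-HSF2 (log2 ratio −3.90). The chromosome 5 interval had 550.9 and 49.6 (−3.47) and the chromosome 4 interval 103.3 and 14.0 (−2.89). The Halo-H2DBD anti-HA signal was likewise high there, at 492.5, 282.0 and 51.9 in mitotic cells. Endogenous mitotic HSF2 had 75.4, 99.1 and 13.9. The 3 sites moved the mean signal over all sites but not the median. The log2 ratio of the mean signals was −0.032 with them and 0.24 without, and the median ratio was 0.24 in both cases.

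The other low ratios were of different kinds. Asmt, for the last enzyme of melatonin synthesis, lies on chromosome X and had 0.103 with anti-HSF2 and 3.07 with anti-HA (−4.89), but 0.67 in asynchronous cells. An interval at the tRNA gene n-TStga1 on chromosome 13 had 0.296 and 2.84 (−3.26). Hcfc1, for a cell cycle cofactor of transcription, had 0.693 and 6.20 (−3.16), and −4.69 in asynchronous cells.

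Peg3, an imprinted zinc finger gene that shares its start region with Usp29, had 5.00 with anti-HSF2 and 39.5 with anti-HA (−2.98), which ranked 258 and 12. Halo-H2DBD was at 50.2 there and endogenous HSF2 at 22.1, and the asynchronous log2 ratio was −2.57. Ganab, for a glucosidase of the endoplasmic reticulum, had 0.408 and 2.63 (−2.69) but 0.47 in asynchronous cells. Cnot3, of the deadenylase complex CCR4-NOT, had 0.760 and 4.33 (−2.51), and an interval inside Kctd16 on chromosome 18 had 36.2 and 195.7 (−2.43). Of these 10 sites 0 held CACGTGAC or a heat shock element, 5 overlapped an HSF1 site and 8 were below the asynchronous median. Over all sites 17.7% held CACGTGAC, 14.1% held a heat shock element and 40.7% overlapped an HSF1 site.

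The sites strongest with both antibodies were not at promoters. The 10 sites with the highest lower-of-both percentile ranks were 297 to 908 bp wide, against a median of 2395 bp over all sites. Of them, 0 were at a coding start, against 72.9% of all sites, and 0 held a heat shock element or CACGTGAC, against 14.1% and 17.7%. They included a repeat-rich interval inside Gm10801 (chr2:98663689-98664090) with 324.7 with anti-HSF2 and 197.1 with anti-HA, one away from genes on chromosome Y (chrY:4036379-4036748) with 113.3 and 73.8, and one inside Aida (chr1:183299133-183299592) with 79.2 and 120.1. The intervals on chromosomes 10 and 5 that match mitochondrial DNA and the one inside Kctd16 were also among the 10. High signals with both antibodies follow from the rule that picked these 10 sites. The sites also ranked 1 to 15 of 2135 for mitotic Halo-H2DBD and 11 to 158 for endogenous mitotic HSF2.

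The direction of the ratio was partly kept in asynchronous cells, whose 4 libraries are separate from the mitotic ones. Across 2121 sites the mitotic and asynchronous ratios had a Spearman correlation of 0.41. Of the sites called towards anti-HSF2 in mitosis, 161 of 212 (75.9%, 69.8% to 81.2%) lay above the asynchronous median, and 69 (32.5%) at least 2-fold above it. Of those called towards anti-HA, 196 of 241 with a value (81.3%, 75.9% to 85.7%) lay below it, 97 (40.2%) at least 2-fold. Over all sites above and below the mitotic median, 64.1% were on the same side in each case. The asynchronous ratios of CACGTGAC sites had a median of 0.53, against 0.11 without.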

How the data were processed

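CUT&Tag signal at HSF2 sites was compared between anti-HSF2 and anti-HA libraries of mitotic cells (nocodazole, 50 ng/ml, 6 h). The authors aligned reads to mm10 with Bowtie2, kept PCR duplicates, scaled the coverage signal to Drosophila spike-in reads, averaged each pair of libraries and deposited 1 mean value a site. Site positions were deposited as lists in mm10 coordinates. Values are not counts, and no count test was used.

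Log2 ratios used no pseudocount. Intervals for medians are binomial order statistics, for shares Wilson and for correlations Fisher z, all at 95% and over sites. Those of differences of medians combine both intervals in quadrature. Transcription starts came from GENCODE M21 basic and sequence from GRCm38.p6. Motifs were searched on both strands. Sites were compared with mitochondrial DNA by blastn 2.17.0 (E value up to 1e-10). Percentile ranks run over all 2135 sites.

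Sites were named by rule: the 12 chaperone sites of highest mean rank, the 10 highest and 10 lowest ratios among sites at or above the 50th percentile with either antibody, the 10 strongest with both, and any at Pou5f1 or Hsf2. The members and lists were chosen with earlier results of these data known, and the octamer, the lysosome list and the genes named from it, Cct4 and Tcp1, and the genes named from the other lists, after their values had been seen. 1 member of the lysosome list is not reported here and was left out of its counts. The calculations were tested on simulated data. Software was pandas 2.3.3, numpy 2.4.6 and scipy 1.17.1 in Python 3.11.15, with figures from matplotlib 3.10.9.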

Additional observations from a re-analysis of the deposited data

How the results depend on the processing

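No paired analysis was possible because the deposited columns are means of the 2 libraries of a condition, and for the same reason no library could be left out. Adding 1 to both signals gave a median log2 ratio of 0.15 and lowered the sites called to 102 towards anti-HSF2 and 80 towards anti-HA, as the added constant is close to the median signals. The ratio of the mean signals was −0.032. Within the upper 50% of sites by mean rank the Spearman correlation was 0.074, a value that choosing sites on the mean of both ranks itself lowers, and 104 sites were called towards anti-HSF2 and 129 towards anti-HA. The Pearson correlation of log2 signals was 0.65. In sites without CACGTGAC 112 sites were called towards anti-HSF2, and the difference between coding starts and distal sites was −0.011. That difference was 0.012 in the weakest quartile. The difference for the heat shock element was 0.019 with 4 units, 0.023 points on percentile ranks and −0.0098 in distal sites. The difference for CACGTGAC, with all its alternatives chosen after seeing the data, was 0.24 for the bare core CACGTG, 0.41 in distal sites, 0.57 in sites overlapping HSF1 and 0.42 in asynchronous cells. With a 4-fold call, 85.0% of sites towards anti-HSF2 and 90.2% towards anti-HA kept their side in asynchronous cells. The other alternatives for these results, 30 in all, stayed within the intervals, within 1.5 times the counts or, on percentile ranks, on the same side of 0. They covered smaller pseudocounts, a minimum signal, repeated or merged intervals, other definitions of overlap and other centring. The effect of depth could not be assessed from the deposited means, and the number of reads behind low signals such as those of Asmt and Ganab is unknown. With 1 added to both signals, none of the 40 named sites changed the sign of its ratio, and 11 moved by at least 0.5, all towards 0.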

Other observations

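Of 17 sites at cytosolic ribosomal protein genes, 9 lay above the median, and Rpl23 (log2 ratio 2.05), Rplp2 (1.37) and Rpl19 (1.27) were called towards anti-HSF2, while Rps29 (−0.85) was called towards anti-HA, against 9.93% and 11.4% of all sites. CACGTGAC was present at Rpl23, Rpl19, Rpl13a (0.40) and Rps28 (0.59), and the latter pair were not called. The median ratio of all 17 sites was 0.28 in mitotic and −0.39 in asynchronous cells.

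Sites at replication-dependent histone genes, near-identical copies whose reads cannot be assigned with certainty, numbered 17 and had a median of 0.044. Towards anti-HA, 3 were called (background 11.4%), among them Hist1h1c at −1.61 and Hist1h3e at −1.35. Of 5 sites at pluripotency genes (Klf2, Klf4, Klf5, Tbx3 and Pou5f1), all lay between −0.12 and 0.27. The 6 sites at proteasome and ubiquitin genes lay between −0.53 and 0.68, those at Hsf1 and Hsf4 at −0.50 and 0.21, and those at the cohesin and condensin genes Smc3 and Ncapd2 at 0.066 and 0.63.

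A distal interval on chromosome 2 (chr2:181930204-181932623) ran against the pattern of the octamer. It held 2 CACGTGAC, counted over both strands, and had 8.87 with anti-HSF2 and 33.9 with anti-HA, a log2 ratio of −1.94. In asynchronous cells the ratio was −2.89, and 42.8% of its bases were repeat-masked. It was picked out after its values had been seen.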
